A study of Mus musculus with 24 samples.

Results

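The genes described here encode the ubiquitin-specific proteases (USPs), taken as every annotated symbol made of Usp and a number, with or without a letter. The probe annotation held 45 such genes on 109 probes. Of these, 38 genes on 66 probes were kept because a probe was detected (detection p under 0.05) on 3 or more of 24 arrays, out of 11010 kept genes on the whole platform. Usp11 was the member nearest to that limit, with 5 arrays, and Usp27x and Usp49 lay just outside it with 2 arrays each. Usp43 and Usp44 were detected on 1 array each and Usp26, Usp28 and Usp9y on 0, so these 7 genes have no value below.

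USPs are cysteine proteases that remove ubiquitin from proteins or take ubiquitin chains apart, and so oppose the ubiquitin ligases. Some trim substrates at the proteasome, some recycle free chains, some act on histones, and others act at endosomes, mitochondria or the endoplasmic reticulum. In skeletal muscle they are of interest because protein loss under glucocorticoids runs in large part through ubiquitin ligases such as MuRF1, the product of Trim63.

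RNA was profiled on Illumina beadchips from calf muscle (triceps surae) of C57/Bl6 mice aged 4 months. MuRF1 knockout mice given dexamethasone (a synthetic glucocorticoid, 3 mg/kg by way of the drinking water), untreated MuRF1 knockout mice, wild-type mice given dexamethasone and untreated wild-type mice were each sampled at 3 and at 14 days. That makes 8 groups of 3 arrays, and each time had untreated mice of its own. The labels do not give how the knockout was made, whether each array is 1 animal, or the hour of day at which muscle was taken.

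Signals are given on the log2 scale after background correction and quantile normalization, and each gene is read by its kept probe of highest mean signal. On the first principal component (28.2% of variance), array 3 of the dexamethasone-treated knockout at 3 days stood apart at 70.61, with all others between -31.96 and 23.77. Of the 38 members, 10 were at least 0.5 lower and 6 at least 0.5 higher on that array than on the mean of the other two arrays of its group, and the larger 3-day knockout changes named below that move by over 1.5 times without that array are given also without it. The treatment and genotype labels were matched by their check genes. Fkbp5, a glucocorticoid-induced co-chaperone, rose by 2.57 to 3.17 in the 4 comparisons of dexamethasone with no treatment. The Trim63 probe was detected on 4 of 12 knockout arrays and 12 of 12 wild-type arrays, and in treated muscle at 14 days, where no knockout array detected it, it was at least 31.6-fold lower in the knockout. Muscle fibre markers were present throughout, with a log2 summed level of 17.07 to 17.47 and 6 of 6 measured.

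Markers of other cells moved with treatment. Of 6 fibroblast markers 4 fell in each of the 4 dexamethasone comparisons, and their log2 summed level was 12.48 to 12.91 on treated arrays, against 12.89 to 13.49 on untreated arrays. All 4 measured erythroid markers fell at 3 days, to a log2 summed level of 12.80 to 13.51 on treated arrays, against 15.07 to 15.83 on untreated arrays, and 0 of 4 passed at 14 days. In the fibroblast list, 1 marker was detected on no array of the treated wild type at 14 days. Averaged over the 4 comparisons, 3 of 4 adipocyte markers rose, 2 of 3 macrophage markers fell, the 1 measured satellite cell marker rose, 1 of 5 endothelial markers rose and 1 fell, and 0 of 1 lymphocyte and 0 of 2 Schwann cell markers passed. In whole muscle, fewer cells of a type and less RNA per cell cannot be told apart, and the part of these cells in the values below was not tested.

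Usp16 and Usp13 had the largest rises of the family under dexamethasone in the knockout at 3 days, and Usp2 was the member that fell. The promoters of these 3 members are therefore shown. Each runs from 250 bases before to 50 after the annotated start (RefSeq, GRCm38.p6, plus strand, chr16:87454735-87455034 for Usp16, chr3:32817376-32817675 for Usp13 and chr9:44084670-44084969 for Usp2). Capitals mark the E-box CACGTG, bound by clock and other basic helix-loop-helix factors, in Usp16, and the hexamer TGTTCT, one arm of the glucocorticoid response element, in Usp13. The Usp2 window held neither of them, nor the D-box. Only this annotated start of Usp2 was examined, while its probes are annotated to different transcripts.
Usp16: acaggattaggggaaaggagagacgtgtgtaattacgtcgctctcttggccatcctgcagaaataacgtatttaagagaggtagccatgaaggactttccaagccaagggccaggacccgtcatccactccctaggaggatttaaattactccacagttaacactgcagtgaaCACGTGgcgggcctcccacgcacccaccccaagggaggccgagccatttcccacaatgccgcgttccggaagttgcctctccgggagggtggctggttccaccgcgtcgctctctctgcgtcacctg
Usp13: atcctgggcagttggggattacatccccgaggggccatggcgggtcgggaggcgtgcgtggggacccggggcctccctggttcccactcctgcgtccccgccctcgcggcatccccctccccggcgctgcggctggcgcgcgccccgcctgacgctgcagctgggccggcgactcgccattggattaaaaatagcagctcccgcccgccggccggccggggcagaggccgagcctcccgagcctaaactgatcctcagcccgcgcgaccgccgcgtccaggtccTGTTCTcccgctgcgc
Usp2: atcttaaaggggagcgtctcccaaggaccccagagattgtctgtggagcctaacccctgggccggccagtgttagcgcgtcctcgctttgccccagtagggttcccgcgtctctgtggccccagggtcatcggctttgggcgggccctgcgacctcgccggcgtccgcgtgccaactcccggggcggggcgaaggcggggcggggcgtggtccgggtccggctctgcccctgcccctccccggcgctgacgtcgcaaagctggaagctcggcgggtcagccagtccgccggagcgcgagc

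Promoters were found for 29 of the 38 members. The E-box CACGTG, which reads the same on both strands, was in 3 of these 29 (Usp4, Usp16 and Usp32) and in 7.15% of all 32851 promoters. The hexamer AGAACA or its complement TGTTCT was in 3 of 29 (Usp13, Usp19 and Usp45) and in 18.97% of all. The D-box TTATGTAA, or TTACATAA on the other strand, the site of the clock output factor Dbp, was in 0 of 29 and in 0.938% of all. None of these letter strings contains another, and a match of letters is not a bound site.

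Dexamethasone left most of the family near its untreated level. Averaged over both genotypes and times, 4 members rose (Usp16, Usp54, Usp13 and Usp36) and 1 fell (Usp2), so that 13.2% of members passed at an adjusted p under 0.05 in limma, against 13.1% of all features (5.84% rose and 7.3% fell). The median change was 0.02 over members and 0.00 over all 16262 features tested, on the log2 scale. In the direction of change, 21 members lay above 0 and 17 below, and member changes ran from -0.44 to 0.55. The share of members that passed thus lay at the background of the platform, and the account that follows is of single genes. Counts of calls by role cover at most 10 measured members each, too few to say anything about a role. With 1 median shift per array in place of quantile normalization the averaged call remained for Usp16 alone, with adjusted p of 0.0645 for Usp2, 0.252 for Usp13, 0.344 for Usp36 and 0.184 for Usp54.

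**Figure D1:**
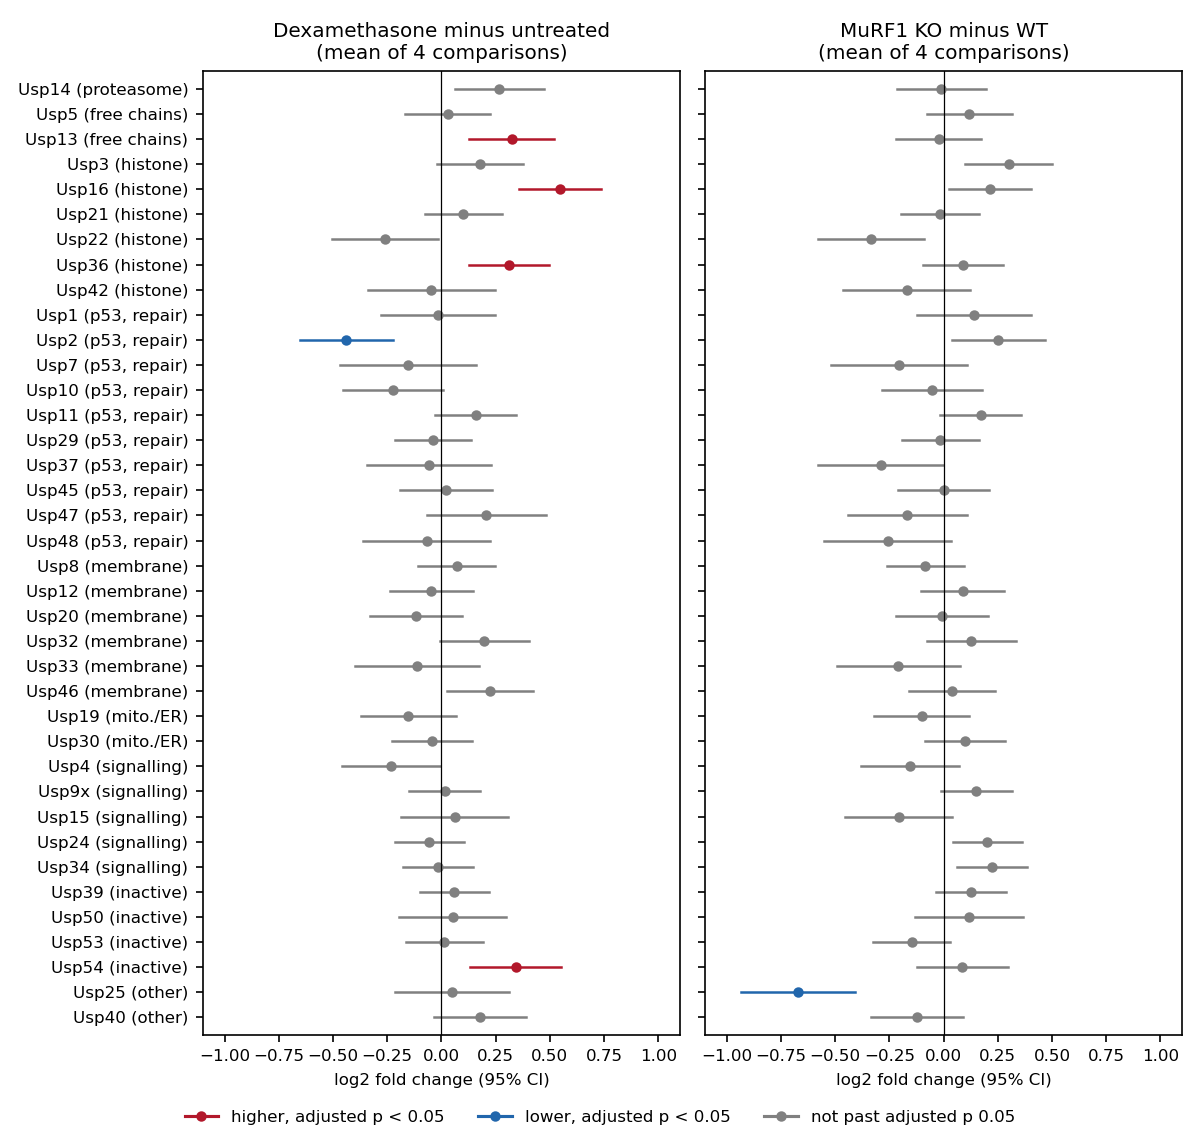
Log2 fold changes (points) with 95% confidence intervals (bars) of the 38 members, averaged over 4 comparisons of dexamethasone with no treatment (left) and of MuRF1 knockout with wild type (right), ordered by role. Red and blue mark members past adjusted p 0.05, and Usp16 at 0.55 and Usp25 at -0.67, as measured, lie farthest from 0.

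Single comparisons gave fewer calls. At 3 days in the knockout 3 members rose and 0 fell, which is 7.89% of members against 5.37% of all features (2.87% rose). At 3 days in wild type 0 members passed in limma (background 3.87%). An unadjusted p under 0.05 was reached by 6 members (15.8%) and by 13.3% of all features. At 14 days in the knockout 1 fell (background 3.27%, with 2.16% falling), and at 14 days in wild type 0 passed (background 3%). In the latter 3 members (7.89%) and 12.8% of all features had an unadjusted p under 0.05. Member medians were 0.06, 0.01, 0.10 and 0.07 in that order, with medians over all features between -0.01 and 0.00. The fit shared 1 spread per feature over all 8 groups, but the groups were unequal. The median SD over members was 0.289 in treated knockout and 0.158 in treated wild-type muscle at 3 days. When only the arrays compared were fitted, 0 members passed in the knockout and 2 in wild type at 3 days. At 14 days these counts were 0 and 1 (share of all features not counted).

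The 3 treated arrays lay clear of the 3 untreated ones for 8 members in the knockout at 3 days (all features 19.2%), 10 in wild type at 3 days (22.6%), 4 in the knockout at 14 days (17.3%) and 5 in wild type at 14 days (19.6%). Usp16, Usp14, Usp36 and Usp46 were higher without overlap in both genotypes at 3 days. The Usp46 probe was dim, detected on 13 of 24 arrays. How many of all features were higher without overlap in both was not counted, so these names are no result about the family. The 4 comparisons use separate arrays. Over them, 6 members were higher each time (Usp3, Usp13, Usp14, Usp16, Usp36 and Usp54; 10.9% of all features were) and 1 was lower each time (Usp2; 13% of all features were).

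**Figure D2:**
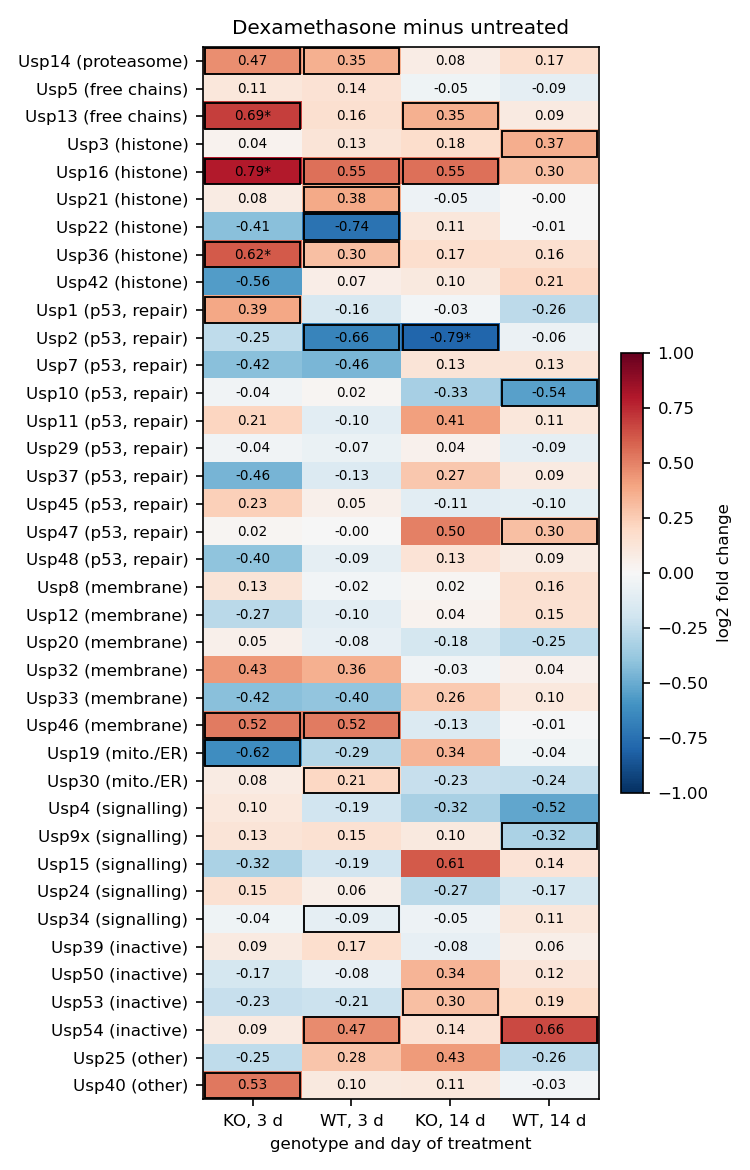
Log2 fold change of dexamethasone over untreated muscle for 38 members (rows, by role) in 4 comparisons (columns), with asterisks at adjusted p under 0.05 and black frames where the 3 treated arrays do not overlap the 3 untreated ones. Usp16 and Usp13 at 3 days in the knockout and Usp2 at 14 days in the knockout carry the strongest colours with an asterisk.

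Usp14, the protease bound to the proteasome that trims chains from arriving substrates, did not pass in any comparison. At 3 days its signals were 6.29, 6.47 and 6.83 in treated knockout and 6.28, 6.14 and 5.77 in untreated knockout muscle, and 6.25, 6.35 and 6.46 in treated wild-type and 6.09, 5.93 and 5.98 in untreated wild-type muscle. The treated arrays lay above the untreated ones in both genotypes at that time, by little in the knockout. At 14 days they overlapped in both. The mean change over the 4 comparisons was 0.27 (SE 0.10, limma adjusted p = 0.0758).

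The proteasome lid was examined beside it. Psmd14, the lid's own deubiquitinase, rose in the knockout at 3 days by 0.66 (SE 0.16, limma adjusted p = 0.0119), with 7.56, 7.64 and 7.93 in treated and 7.21, 7.02 and 6.92 in untreated muscle. In wild type at 14 days Psmd14 had 6.76, 6.78 and 7.07 in treated and 7.35, 6.98 and 7.13 in untreated muscle, and it did not pass on average. Psmd7, its inactive partner, rose in the knockout at 3 days by 0.64 (SE 0.13, limma adjusted p = 0.00381). In wild type at 3 days Psmd7 had 10.93, 11.07 and 11.12 in treated and 10.50, 10.68 and 10.57 in untreated muscle. Psmd14 had 7.42, 7.40 and 7.61 in treated and 7.33, 7.09 and 7.37 in untreated muscle of those mice. For both genes these groups did not overlap (22.6% of all features did not), but neither gene passed in that comparison. Psmd2, the base subunit at which Usp14 docks, rose by 0.77 in the knockout and 1.095 in wild type at 3 days. In the knockout the calls of Psmd14 and Psmd2 were lost without treated array 3 (adjusted p = 0.084 for Psmd14 and 0.0621 for Psmd2) or untreated array 3 (0.0718 for each).

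Usp13, a relative of the free-chain protease Usp5, rose at 3 days in the knockout. Its signals there were 7.94, 7.48 and 8.02 in treated and 7.42, 6.97 and 6.98 in untreated muscle, with no overlap. In wild type at that time they were 7.35, 7.73 and 8.05 in treated and 7.70, 7.37 and 7.58 in untreated muscle, which overlapped. At 14 days the treated knockout arrays, at 7.46, 7.59 and 7.24, again lay above the untreated ones, at 7.03, 7.06 and 7.13, and in wild type the groups overlapped.

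In the knockout at 3 days the change of Usp13 was 0.69 (SE 0.19, limma adjusted p = 0.0274), and the mean over the 4 comparisons was 0.32 (SE 0.09, adjusted p = 0.0195). The 3-day call was lost without treated array 1 (adjusted p = 0.0644), treated array 3 (0.136), untreated array 2 (0.0997) or untreated array 3 (0.131), while the mean passed without any 1 of the 24 arrays. Usp5, which takes free ubiquitin chains apart, had changes between -0.09 and 0.14 in the 4 comparisons and did not pass in any.

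Usp16, which removes ubiquitin from histone H2A, had the largest rise of the family. At 3 days its signals were 8.10, 8.31 and 8.65 in treated and 7.47, 7.66 and 7.55 in untreated knockout muscle, and 7.92, 8.20 and 8.27 in treated and 7.65, 7.72 and 7.38 in untreated wild-type muscle. At 14 days they were 8.26, 7.93 and 8.001 in treated and 7.28, 7.71 and 7.55 in untreated knockout muscle, and 7.77, 7.52 and 7.54 in treated and 7.49, 7.56 and 6.88 in untreated wild-type muscle. Treated arrays lay above untreated ones in 3 of the 4 comparisons, and in wild type at 14 days they overlapped.

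The mean change of Usp16 was 0.55 (SE 0.09, a 1.46-fold rise, limma adjusted p = 9.21e-05). It passed without any 1 of the 24 arrays and under all 13 other settings tried. Among single comparisons, the 3-day knockout passed at 0.79 (SE 0.18, adjusted p = 0.00785), but without array 3 of the treated group the value was 0.65 (adjusted p = 0.0605). The 3-day wild type stood at 0.55 (adjusted p = 0.0994) and the 14-day knockout at 0.55 (adjusted p = 0.102). A second, dimmer Usp16 probe did not follow, with a mean change of -0.04 (SE 0.12, adjusted p = 0.918 over all kept probes), so the call rests on 1 probe.

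Usp36, a nucleolar protease, rose at 3 days in the knockout, with 7.10, 7.20 and 7.53 in treated and 6.88, 6.76 and 6.35 in untreated muscle. In wild type at 3 days it had 7.01, 7.004 and 7.52 in treated and 6.91, 6.76 and 6.96 in untreated muscle. The groups did not overlap in either genotype, although 2 treated wild-type arrays lay close to the highest untreated one. The changes were 0.62 in the knockout (SE 0.17, limma adjusted p = 0.0387) and 0.30 in wild type, and the mean over the 4 comparisons was 0.31 (SE 0.09, adjusted p = 0.0171).

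The 3-day knockout call for Usp36 was lost without treated array 2 (adjusted p = 0.0584), treated array 3 (0.207), untreated array 2 (0.0592) or untreated array 3 (0.243). Its other kept probe had a mean change of -0.01 (adjusted p = 0.971 over all kept probes). With the 2 probes averaged the mean change was 0.15 and did not pass (adjusted p = 0.0916).

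Of the other 4 measured proteases linked to histones, 0 passed in a dexamethasone comparison (3% to 13.1% of all features did, by comparison). Usp22, the deubiquitinase of the SAGA coactivator complex, had values of -0.41 in the knockout and -0.74 in wild type at 3 days (wild type limma adjusted p = 0.0798), and without treated array 3 the knockout value was -0.10. Usp3 and Usp21, which act on histone H2A, had mean changes of 0.18 and 0.10. Usp42 ranged from -0.56 to 0.21 over the 4 comparisons, and the lowest, in the knockout at 3 days, was -0.15 without treated array 3.

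**Figure D3:**
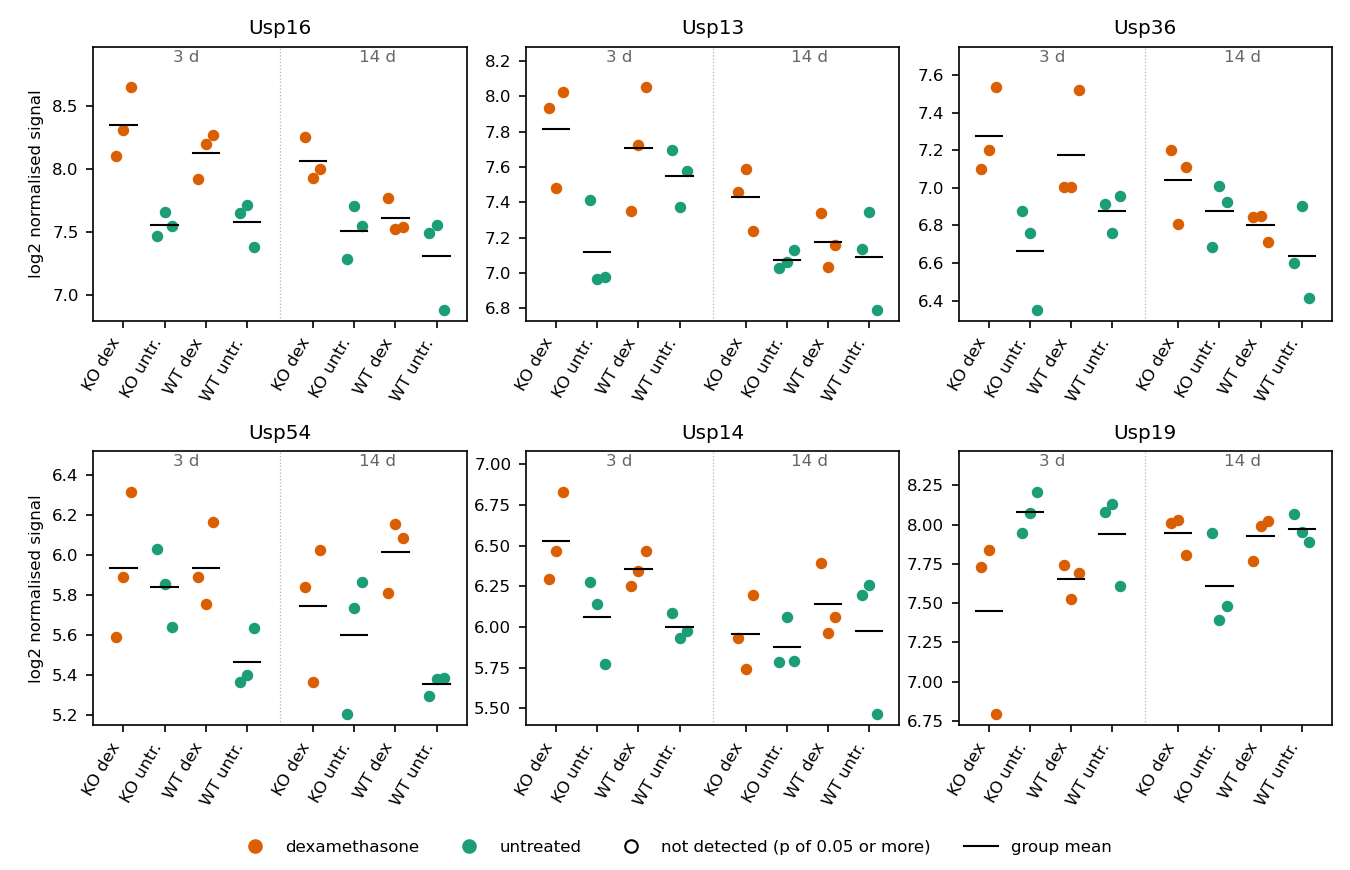
Log2 normalised signal of 6 members on each of the 24 arrays (points), with the mean of each group of 3 (lines), dexamethasone in orange and untreated in green, 3 days left and 14 days right of the dotted line. Usp16 is higher on treated arrays in 3 of 4 pairs of groups, and Usp19 has 1 low array, at 6.79, in treated knockout muscle at 3 days.

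Usp2 was the one member that fell. It removes ubiquitin from cell cycle and clock proteins, and its transcript is itself known to follow the circadian clock in several mouse tissues. At 3 days its signals were 9.84, 9.87 and 10.06 in treated and 10.46, 10.28 and 9.80 in untreated knockout muscle, and 10.04, 9.51 and 9.90 in treated and 10.36, 10.69 and 10.36 in untreated wild-type muscle. At 14 days they were 8.87, 9.44 and 9.45 in treated and 9.66, 10.45 and 10.03 in untreated knockout muscle, and 8.81, 9.10 and 9.16 in treated and 8.97, 9.17 and 9.10 in untreated wild-type muscle. Treated arrays lay below untreated ones in wild type at 3 days and in the knockout at 14 days, and the groups overlapped in the other two comparisons.

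The mean change of Usp2 was -0.44 (SE 0.10, limma adjusted p = 0.00351), and it passed without any 1 of the 24 arrays. The 14-day knockout passed at -0.79 (SE 0.20, adjusted p = 0.0274), a 1.73-fold fall. That call was lost without treated array 1 (adjusted p = 0.186), untreated array 2 (0.217) or untreated array 3 (0.0879). The 3-day wild type stood at -0.66 (adjusted p = 0.0752), the 3-day knockout at -0.25 and the 14-day wild type at -0.06.

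Untreated wild-type arrays of the 14-day arm had low Usp2 values. The 3 of them lay at 8.97 to 9.17, below each of the other 9 untreated arrays, which ran from 9.66 to 10.69. Their mean of 9.08 was near those of the treated 14-day groups, 9.02 in wild type and 9.25 in the knockout. The dexamethasone changes in the 14-day knockout and the 3-day wild type do not use these arrays. In untreated wild-type muscle the 14-day arm was 1.39 lower than the 3-day arm (SE 0.20, limma adjusted p = 0.00157), a comparison added after the values were seen. Only 0.16% of all features and 1 of 38 members passed in it, and Usp2 passed without any 1 of the 6 arrays (adjusted p of 0.00585 to 0.0278). In untreated knockout muscle the same difference was -0.13, and 0 members passed (background 0.00615%), with 1 at an unadjusted p under 0.05. The difference between the genotypes was 1.26 (limma adjusted p = 0.235), where 0 of 38 members and 0% of features passed. There 2 members had an unadjusted p under 0.05. The share of all features at that unadjusted level was not counted in the comparisons between arms.

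In the 14-day arm Usp2 was higher in untreated knockout than in untreated wild-type muscle, by 0.97 (SE 0.20, limma adjusted p = 0.0262). It was the only member to pass there, where 0.351% of all features did. The call was lost without untreated wild-type array 1 (adjusted p = 0.158), 2 (0.08) or 3 (0.0722), or without untreated knockout array 2 (0.257) or 3 (0.126). In the 3-day arm the same comparison gave -0.29. The genotype comparison and the 14-day dexamethasone comparisons share these untreated arrays.

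Clock genes were read beside Usp2. Of 14 measured clock genes, 7 fell and 4 rose under dexamethasone on average (7.3% and 5.84% of all features did). Dbp, which drives output genes of the clock, fell in all 4 comparisons, with changes of -3.68 to -3.06, and Arntl, the core activator, rose by 1.34 on average. In the knockout at 3 days 6 clock genes fell and 2 rose (5.37% of all features passed). In wild type at 14 days 3 fell and 0 rose (3% passed). Usp2 was lower in both of these comparisons, without passing. In untreated wild-type muscle 5 of the 14 passed between the 14-day and the 3-day arm, with Per2, Dbp, Ciart and Cry2 lower in the 14-day arm and Nr1d2 higher, by 1.21 (limma adjusted p = 0.0375). Per2, a core repressor, had 4.46, 5.32 and 6.38 in the 14-day arm and 7.77, 7.82 and 7.92 in the 3-day arm, a difference of -2.45 (SE 0.39, limma adjusted p = 0.00491). Ciart, another repressor, had 4.83, 4.91 and 4.88 in the 14-day arm, against 6.55, 6.55 and 6.29 in the 3-day arm. In the untreated knockout 0 of the 14 passed. The part of the clock in the values of Usp2 was not tested.

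Usp2 was read by 4 kept probes, and they did not all agree. The next brightest pair had mean changes under dexamethasone of -0.31 (SE 0.13, limma adjusted p = 0.147 over all kept probes) and -0.52 (SE 0.14, adjusted p = 0.012), where 11.9% of all kept probes passed. The probe at -0.52 is annotated to a different Usp2 transcript from the rest. In wild-type mice without treatment both probes of this pair were lower in the 14-day arm (means of 5.98 and 5.61) than in the 3-day arm (6.81 and 6.85). In treated wild type at 14 days their means were slightly higher, 6.10 and 5.75. A fall in each of the 4 dexamethasone comparisons was thus seen with the brightest probe only. The dimmest, ILMN_1223302, was detected on 9 of 24 arrays and passed as higher in wild type at 3 days (adjusted p = 0.0071), where 3.38% of all kept probes passed. The untreated group detected it on 1 of 3 arrays, and the difference was 0.82 as measured (SE 0.18) and 0.71 with undetected arrays set to their lowest detected signal. Its mean there was 5.39 ± 0.409 on treated and 4.57 ± 0.119 on untreated arrays (SD, n = 3 each).

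**Figure D4:**
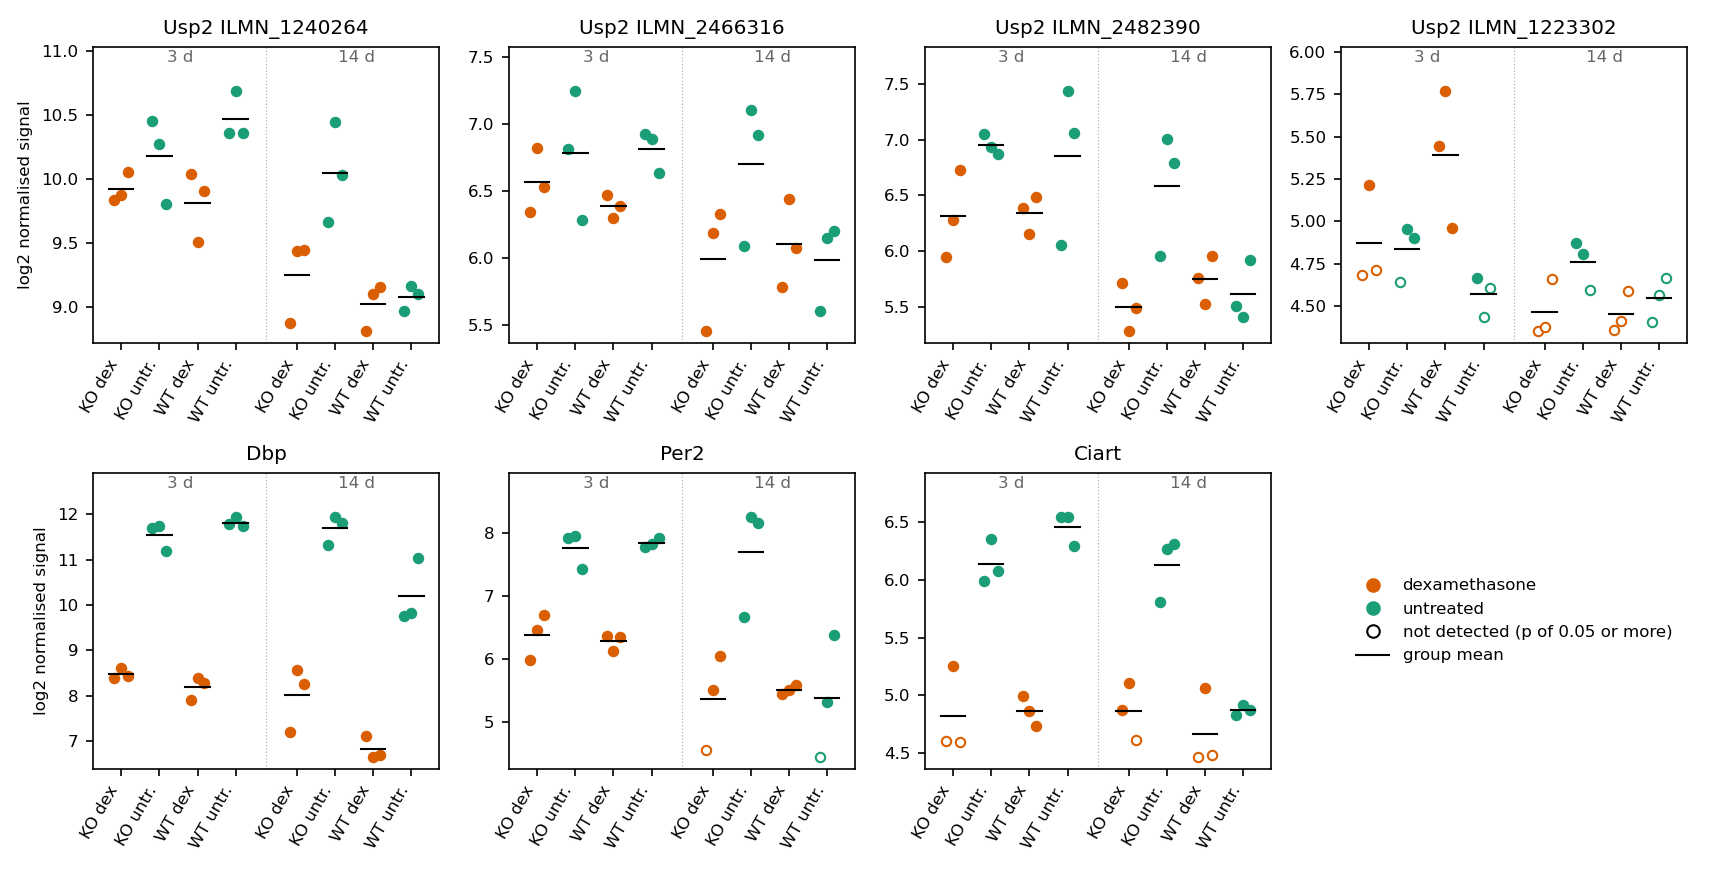
Log2 normalised signal on each of the 24 arrays (points) for the 4 kept Usp2 probes (top) and for the clock genes Dbp, Per2 and Ciart (bottom), with the mean of each group of 3 (lines). Open points were not detected. The untreated wild-type arrays at 14 days are low for the 3 brighter Usp2 probes, Per2 and Ciart, and the dimmest Usp2 probe is high in treated wild type at 3 days.

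The other 9 measured members of the p53, DNA repair and cell cycle group did not pass in a dexamethasone comparison (3% to 13.1% of all features did). Usp7, which stabilises p53 and its ligase Mdm2, had changes between -0.46 and 0.13, of which the 3-day knockout value of -0.42 was -0.01 without treated array 3. Usp1, which acts on the Fanconi anaemia protein Fancd2, ranged from -0.26 to 0.39, and the highest, in the knockout at 3 days, was 0.23 without that array. Usp10, a cytoplasmic protease of p53, was -0.54 in wild type at 14 days (limma adjusted p = 0.258). Usp47, a protease of the base excision repair pathway, was 0.50 in the knockout and 0.30 in wild type at 14 days, without passing. Its 3-day knockout change was 0.02, and 0.44 without treated array 3.

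Usp19, anchored in the endoplasmic reticulum, is known from rat muscle to be induced by catabolic states, dexamethasone among them. Here it did not pass in any comparison. At 3 days it had 7.73, 7.84 and 6.79 in treated and 7.95, 8.08 and 8.21 in untreated knockout muscle, and 7.75, 7.52 and 7.69 in treated and 8.08, 8.13 and 7.61 in untreated wild-type muscle. Treated knockout arrays lay below untreated ones, at a change of -0.62 (SE 0.21, limma adjusted p = 0.0794), and without treated array 3 the change was -0.29 (adjusted p = 0.51). The wild type was at -0.29 at 3 days and -0.04 at 14 days, and the mean over the 4 comparisons was -0.15 (adjusted p = 0.425). Usp30, which opposes mitophagy at the outer mitochondrial membrane, had changes between -0.24 and 0.21.

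Members at endosomes and membranes did not pass in a dexamethasone comparison either (0 of 6, with 3% to 13.1% of all features passing). Usp46, which works with the activator Wdr48, was 0.52 higher at 3 days in each genotype (limma adjusted p = 0.108 in the knockout and 0.155 in wild type), and its probe was detected on 13 arrays. Usp32, a membrane-anchored protease, was 0.43 in the knockout and 0.36 in wild type at 3 days. Both were near 0 at 14 days, between -0.13 and 0.04. Usp8, the endosomal protease that spares receptors from lysosomal sorting, ranged from -0.02 to 0.16. Usp33, a protease of receptor recycling, was -0.42 in the knockout and -0.40 in wild type at 3 days and 0.26 and 0.10 at 14 days, and the 3-day knockout value was -0.18 without treated array 3. Usp40, a member of less known function, was 0.53 in the knockout at 3 days without overlap (adjusted p = 0.133) and between -0.03 and 0.11 elsewhere. The members not named otherwise were Usp11, Usp12, Usp20, Usp29, Usp37, Usp45 and Usp48. Their changes lay between -0.46 and 0.41 in the 4 comparisons, and none of them passed in limma. For the averaged change 9 of all 38 members (23.7%) and 23.1% of all features had an unadjusted p under 0.05. In the knockout at 3 days Usp37 was -0.46 and Usp48 -0.40, and without treated array 3 they were -0.03 and 0.02.

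Among 5 members of growth factor and Wnt signalling 0 passed in a dexamethasone comparison (3% to 13.1% of all features did). Usp15, linked to TGF-beta receptors and SMADs, was -0.32 at 3 days and 0.61 at 14 days in the knockout (limma adjusted p = 0.186 at 14 days), and the 3-day value was -0.00 without treated array 3. Usp4, its close paralogue, had a mean of -0.23 (adjusted p = 0.187), with -0.52 in wild type at 14 days. Usp9x, Usp24 and Usp34 had mean changes between -0.06 and 0.02.

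Of 4 members long classed as lacking activity, 1 rose on average (5.84% of all features did). Usp54 had at 3 days 5.89, 5.75 and 6.16 in treated and 5.36, 5.40 and 5.63 in untreated wild-type muscle. At 14 days it had 5.81, 6.15 and 6.08 in treated and 5.30, 5.38 and 5.39 in untreated wild-type muscle. Its treated wild-type arrays lay above the untreated ones at both times, and the knockout arrays overlapped at both.

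The mean change of Usp54 was 0.34 (SE 0.10, limma adjusted p = 0.0205). It stood at 0.47 and 0.66 in wild type at 3 and 14 days (adjusted p = 0.258 and 0.0742) and at 0.09 and 0.14 in the knockout. The differences between genotypes, -0.38 at 3 days and -0.52 at 14 days, did not pass. Usp39, a spliceosome component, stayed between -0.08 and 0.17, Usp53 between -0.23 and 0.30 and Usp50 between -0.17 and 0.34. Without treated array 3 the 3-day knockout values were -0.10 for Usp54 and 0.06 for Usp50.

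Knockout and wild type differed in 1 member on average, Usp25 (3.69% of all features passed). Usp25 has a muscle isoform and acts at the endoplasmic reticulum and in immune signalling. Its only kept probe was dim. At 3 days it had 4.20, 4.20 and 4.21 in treated knockout and 5.32, 5.33 and 5.63 in treated wild-type muscle, and 4.19, 4.89 and 4.30 in untreated knockout and 5.19, 5.36 and 4.90 in untreated wild-type muscle. At 14 days it had 5.47, 4.45 and 5.47 in treated knockout and 5.35, 5.22 and 4.96 in treated wild-type muscle, and 4.57, 4.86 and 4.68 in untreated knockout and 5.59, 5.86 and 4.86 in untreated wild-type muscle.

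The knockout arrays of the 3-day arm all lay below the wild-type ones of the same treatment, while at 14 days the treated groups overlapped and 2 treated knockout arrays reached the wild-type level. The probe was detected on 12 of 12 wild-type and 4 of 12 knockout arrays. The mean difference, knockout minus wild type, was -0.67 as measured (SE 0.12, limma adjusted p = 0.0021), and it passed without any 1 of the 24 arrays. With each undetected array set to its lowest detected signal the difference was -0.39, which bounds its size from below. In the authors' value table it was -0.43 and did not pass (adjusted p = 0.135).

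Under dexamethasone at 3 days the Usp25 difference, knockout minus wild type, was -1.22 as measured (limma adjusted p = 0.0205). The means were 4.21 ± 0.00592 in the knockout and 5.43 ± 0.175 in wild type (SD, n = 3 each). No treated knockout array detected it, so its size is given as a bound, at least 1.53-fold lower in the knockout. That fold sets the wild-type mean against the lowest detected signal of each knockout array and was not itself tested. Usp25 was the only member past the threshold in that comparison, where 0.517% of all features passed. The call was lost without wild-type array 1 (adjusted p = 0.0605), 2 (0.0732) or 3 (0.107) or knockout array 2 (0.0606). The untreated differences, with 1 of 3 knockout arrays detected at each time, were -0.69 at 3 days and -0.73 at 14 days as measured (-0.34 and -0.66 with undetected arrays at that floor) and did not pass, and the treated difference at 14 days was -0.05.

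**Figure D5:**
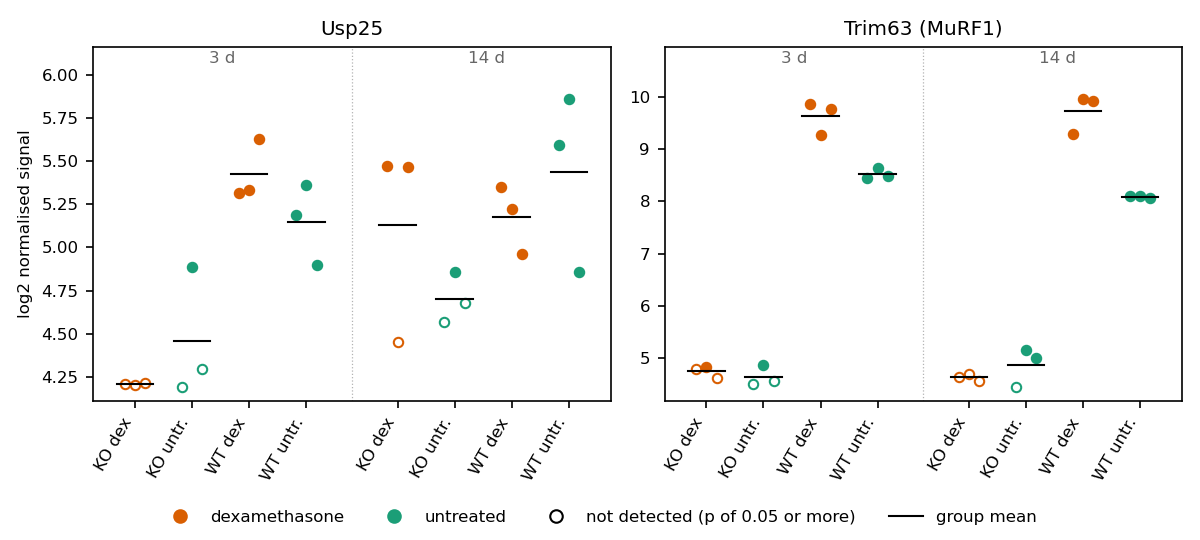
Log2 normalised signal of Usp25 (left) and of Trim63, the deleted gene (right), on each of the 24 arrays (points), with the mean of each group of 3 (lines). Open points were not detected. Usp25 was detected on 12 of 12 wild-type and 4 of 12 knockout arrays.

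Beside Usp25 and Usp2, 0 members passed between genotypes. In untreated muscle at 3 days 0 members passed in limma (background 0.326%), and in treated muscle at 14 days 0 passed (background 0.603%). An unadjusted p under 0.05 was reached by 2 members each time, 5.26% of members. Of all features 6.52% and 11.4% reached it. The median of the averaged difference was -0.01 over members and 0.01 over all features. Usp3 came nearest, at a mean of 0.30 (adjusted p = 0.0764) and at 0.75 in untreated muscle of the 14-day arm (adjusted p = 0.108). On the chromosome of Trim63, chromosome 4, lay 4 members, separated from it by 60 (Usp48), 410 (Usp24), 450 (Usp1) and 875 (Usp45) protein-coding genes, and their mean differences were between -0.26 and 0.20, without passing. Usp25 and Usp16 lie on chromosome 16.

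The effect of dexamethasone on members was not found to differ by genotype or by time. Of the 38, 0 passed in limma for knockout minus wild type at 3 days (background 0%) and at 14 days (background 0.0123%). There 0 and 1 members had an unadjusted p under 0.05, against 4.30% and 4.86% of all features. For 14 days minus 3 days, 0 passed in wild type (background 0.148%) and in the knockout (background 0.129%), with 3 and 4 at an unadjusted p under 0.05. The value for Usp2, knockout minus wild type at 14 days, was -0.74 (adjusted p = 0.97), with an unadjusted 95% interval of -1.34 to -0.13. For Usp19 in the knockout it was 0.97, 14 days minus 3 days (adjusted p = 0.159). Without untreated knockout array 1 of the 14-day arm 2 members passed there.

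Other deubiquitinase families were set beside the USPs. Of 31 measured members of the UCH, Josephin, MINDY, OTU and JAMM families, 5 rose and 2 fell under dexamethasone on average (5.84% and 7.3% of all features did), with a median change of 0.04. The strongest was Otulin, which cleaves linear ubiquitin chains, at a mean of 0.73 (SE 0.07, limma adjusted p = 3.81e-08). At 3 days it had 9.71, 9.97 and 10.32 in treated and 8.99, 8.78 and 8.74 in untreated knockout muscle, and 9.51, 9.49 and 9.63 in treated and 8.56, 8.64 and 8.70 in untreated wild-type muscle, with no overlap. The rest that rose were Otud3, Otub2, Eif3f and Psmd7, by 0.27 to 0.34, and Mpnd and Tnfaip3, which edits ubiquitin in NF-kappaB signalling, fell by 0.30 and 0.29.

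Among 20 measured partners of USPs, 3 rose on average and 0 fell (5.84% and 7.3% of all features did). Nploc4, a cofactor of the p97 segregase, had a mean change of 0.56, Psmd2 of 0.47 and Hgs, the endosomal partner of the Usp8 pathway, of 0.30 (limma adjusted p = 5.85e-05, 0.000372 and 0.0368). The Hgs call was lost without any 1 of 12 of the arrays (adjusted p of up to 0.0786), and those of Nploc4 and Psmd2 were not. Over all 38 members, the highest and the lowest of the 8 group means lay 0.63 apart at the median. That span was 1.45 for Usp2 and 1.05 for Usp16, and it was smallest for Usp45 (0.31). For Usp25 it was 1.23 as measured and 0.66 with undetected arrays at the floor.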

How the data were processed

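Per the labels, total RNA of 24 muscle samples was made into biotin-labelled cRNA and read on Illumina mouse beadchips. A deposited table of non-normalized values holds an average signal intensity of 46632 probes for each array, per the file headers. Per the file headers, every signal there has a detection p-value beside it. The authors' deposited value table holds linear intensity values whose background subtraction and quantile normalization were read from the values themselves. The submitters' processing notes list BeadStudio 3.2.3 without saying what it did. The labels name samples, not animals, so p-values measure only how far these samples scatter, possibly for technical reasons, and precision is limited by the small number of arrays.

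Signals were processed with neqc (limma 3.58.1, R 4.3.3, offset 16), which gave log2 values from the deposited signals. Probes with a detection p under 0.05 on at least 3 arrays were kept, 20769 in all, and the brightest kept probe stood for each gene, giving 16262 features, 11010 of them named. Of all probes 29976 had 1 symbol, 10 several and 16646 none. A model of 8 group means was fitted with lmFit and eBayes on 16 residual degrees of freedom, over 14 comparisons, with Benjamini-Hochberg adjustment over all features of a comparison and a threshold of 0.05. The 95% intervals use the moderated SE of limma with 16 degrees of freedom. The limma p-values use more, so the intervals are slightly wider than ones matched to them. Lower bounds on a fold take, per array of the dim group, the higher of its own signal and the lowest signal detected there.

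The members, the gene lists (other deubiquitinases, USP partners, clock genes and cell markers) and the tests were chosen with earlier results of these data known. Values on each array are shown in the figures, and in part in the text, for members past the threshold in any comparison. Usp2, Usp14, Usp19 and Usp25 were named whether or not they passed. On simulated data of 16262 genes, 34% of 100 genes changed 1.5-fold and 82% of 100 changed 2-fold were recovered for dexamethasone in the knockout at 3 days, and 92% and 99% for the mean over 4 comparisons. How far the 3-day knockout shares hold at the real spread of that treated group was not tested. There 15 of 38 members had their highest SD, and array 3 stood apart on the first principal component. In 5 groups the array numbers of the 2 tables disagree, and those of the non-normalized one are used. Same-numbered arrays deviated together at r over 0.1 in every pair for 1 of 8 comparisons, treated knockout against treated wild type at 3 days (r of 0.13 to 0.50), and as the numbers conflict the pairing was used only as an alternative. Slide as a block was not run because no header names a slide. Promoter sequences are from RefSeq (GRCm38.p6), and that assembly served for gene order.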

Additional observations from a re-analysis of the deposited data

How the results depend on the processing

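Counts here are members past adjusted p 0.05 in limma, 14 comparisons under 14 alternatives, and no named member result that had passed changed direction. With cyclic loess 3 members passed for dexamethasone in wild type at 3 days, 1 in wild type at 14 days, 2 in the knockout at 14 days and 2 for the averaged genotype difference. With 1 median shift per array 0 passed for dexamethasone in the knockout at 3 days, 0 in the knockout at 14 days, 1 (Usp16) on average and 0 between untreated genotypes at 14 days, against 5 between treated genotypes at 3 days and 5 for the averaged genotype difference. That shift moved the median of all features to -0.31 between treated and -0.26 between untreated genotypes at 3 days. Member medians were -0.47 and -0.39. Rises made up 0.844% of all calls between treated genotypes at 3 days, against 42.9% after quantile normalization. In that comparison 17 features were higher and 1998 lower with the shift, against 36 and 48 after quantile normalization. For the averaged genotype difference 43 were higher and 1146 lower, against 323 and 277. With the values the authors deposited, 0 passed between untreated genotypes at 14 days, 0 between treated genotypes at 3 days and 0 for the averaged difference. Without a filter 1 passed for dexamethasone in the knockout at 3 days, 0 in the knockout at 14 days, 0 between untreated genotypes at 14 days and 0 between treated genotypes at 3 days. With every probe tested singly 1 passed in wild type at 3 days (Usp2, by its dimmest probe). With probes averaged 1 passed in the knockout at 3 days and 0 between untreated genotypes at 14 days. With only the arrays compared 2 and 1 passed in wild type at 3 and 14 days, 0 and 0 in the knockout, and 0 between untreated genotypes at 14 days. Array weights gave 3 in wild type at 3 days, 1 in wild type at 14 days and 9 in the knockout at 14 days. They gave 11 on average, 10 between untreated genotypes at 14 days and 2 between treated genotypes at 3 days. They also gave 6 for the averaged genotype difference and 1 for 14 against 3 days in the knockout. Calls over all features grew as well. In the knockout at 14 days 1248 features rose and 1614 fell with weights, against 180 and 352 as reported. On average 1779 rose and 2175 fell, against 949 and 1187. Between untreated genotypes at 14 days 1399 were higher and 1282 lower, against 23 and 34. The highest weight, 4.81, was on untreated knockout array 3 of the 14-day arm. With variance trend and robust fitting 1 passed in wild type at 3 days. The cause of these shifts was not tested. The replicate block changed no call of a member: 3 passed with it in the knockout at 3 days and 5 on average. Leaving out 1 array gave 0 to 3 members for dexamethasone in the knockout at 3 days, 0 to 2 at 14 days, 5 to 7 on average, 0 to 1 between untreated genotypes at 14 days, 0 to 1 between treated genotypes at 3 days, 1 to 3 for the averaged genotype difference and 0 to 2 for 14 against 3 days in the knockout. Members near background (Usp11, Usp12, Usp25, Usp29, Usp34, Usp45 and Usp46) are limited by signal.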
